A study of Mus musculus with 4 samples.

Results

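The solute carrier transporters described here are the mouse genes whose symbol begins with Slc and a number and whose mean level over the 4 libraries was at least 1 RPKM (reads per kilobase of gene length, scaled to the library total). Of 358 such symbols, 248 reached that mean and 110 did not, and 11 of the 248 were left out by name (Slc4a2, Slc4a5, Slc4a10, Slc12a2, Slc13a4, Slc6a13, Slc1a2, Slc1a3, Slc7a11, Slc17a6 and Slc32a1). The remaining 237 are the members, among 13186 genes compared with the same minimum and 18492 listed in any library. The minimum uses measured levels, so that every member is detected is no result: Slc52a3 (1.01 RPKM), Slc9b2 (1.02) and Slc25a13 (1.03) lay just inside it, and Slc2a9 (0.921), Slc10a1 (0.871) and Slc15a3 (0.855) just outside. A gene low in WT enters more easily when another library is high, and 7 members were under 1 RPKM in WT. Membership follows the symbol, so 4 members are not carriers: Slc4a1ap, Slc7a6os, Slc9a3r1 and Slc9a3r2.

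RNA came from the hippocampus of C57BL/6 mice at 6 months, with 1 library from each of 4 genotypes: wild type (WT), Ogg1-/- (Ogg1 KO), Mutyh-/- (Mutyh KO), and Ogg1-/- Mutyh-/- (DKO). Ogg1 and Mutyh encode DNA glycosylases that act on damage from oxidised guanine. The number of animals behind each RNA sample is not stated, and no difference can be checked against replicates. Each comparison with WT uses the same WT library, so a deviation of that library enters all 3.

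Solute carriers move ions, nutrients, metals, vitamins, neurotransmitters and metabolites across membranes by exchange, by cotransport or down a gradient. In the brain, some clear transmitters from the synapse or load them into vesicles, some feed glia and neurons, and many sit in barriers: the endothelium of vessels, the choroid plexus, which secretes cerebrospinal fluid, and the meninges around the brain. The family also holds the carriers of the inner mitochondrial membrane and of the Golgi.

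The libraries held 17.02 M to 18.20 M unique reads in genes (M, mega), of which ribosomal RNA genes took between 0.352% (Ogg1 KO) and 1.48% (DKO). Members had a median of 481 to 510 reads per library. Reads of Ogg1 covered 86.7% of its length in WT and 81.49% in Mutyh KO, but 47.17% in Ogg1 KO and 46.4% in DKO, although its total was not lower in the library labelled Ogg1 KO (94 reads in WT against 130, 81 and 103 in Ogg1 KO, Mutyh KO and DKO). Mutyh had 39 reads in WT against 35, 15 and 20 in Ogg1 KO, Mutyh KO and DKO. Xist, the RNA of the inactive X chromosome, had 10307 reads in Mutyh KO against 14 to 29 in the other libraries, while Y-linked genes were still read there at reduced levels: Ddx3y had 289 reads in Mutyh KO against 816 in WT, Uty 87 against 285 and Kdm5d 159 against 417. Of 10 markers of hippocampal neurons, all were listed, with a summed level of 397 to 446 RPKM.

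Markers of tissues that border the hippocampus differed between the libraries, and their part in the results below was not tested. All 12 choroid plexus markers were above WT in each knockout library; their summed level was 262 RPKM in WT against 2933, 2885 and 1475 in Ogg1 KO, Mutyh KO and DKO, and none was at 0. Meningeal markers summed to 78.7, 150.2, 200.6 and 149.0 RPKM in the same order, with 8, 10 and 10 of 10 above WT and none at 0. Endothelial markers summed to 88.5, 88.1, 96.0 and 93.7 RPKM, pericyte and smooth muscle markers to 57.8, 77.0, 66.9 and 81.3, and blood cell markers to 55.5, 113, 190 and 85.3, with Hbb-b2 at 0 in some libraries. Astrocyte markers summed to 703 to 779 RPKM, oligodendrocyte markers to 1286 to 1515, microglial markers to 174 to 184 and ependymal markers to 24.2 to 45.5. In bulk tissue, fewer cells of a type and less RNA per cell cannot be told apart.

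Most members differed little between the 4 libraries. Together they took 1.74% of reads in WT (Wilson 95% interval 1.73 to 1.75, counting error only) against 1.76%, 1.74% and 1.73% in Ogg1 KO, Mutyh KO and DKO. The ratio of the highest to the lowest library had a median of 1.18 over members and 1.19 over all genes compared. It stayed within 1.5-fold for 203 members (85.7%, against 89.4% of all genes) and passed 2-fold for 13 (5.49%, against 3.18%). Of the 34 members past 1.5-fold, 27 were lowest in WT (79.4%); of all genes past it, 51.6% were lowest in WT.

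A member is called higher or lower here when log2(RPKM + 1) differed from WT by at least 1.5-fold, a scale that understates differences of low genes. Below, runs of 4 values follow the order WT, Ogg1 KO, Mutyh KO, DKO, and runs of 3 ratios to WT follow the order of the 3 knockouts. In Ogg1 KO, 11 members were higher (4.64% of 237, against 1.57% of all genes compared) and 2 were lower (0.844%, against 0.66%). In Mutyh KO, 14 were higher (5.91%, against 2.31%) and 0 lower (0.174% of all genes). In DKO, 11 were higher (4.64%, against 1.62%) and 0 lower (0.394% of all genes). These shares over all genes also apply to the classes and lists below: with shares this low, 0 called in a small group is no result about it. Among the 230 members with at least 1 RPKM in WT, 7, 10 and 10 were higher, against 1.2%, 1.78% and 1.22% of all genes with that level in WT. The median log2 ratio over members was 0.0215, 0.0215 and 0.0011 in Ogg1 KO, Mutyh KO and DKO; over all genes it was 0.0187, 0.0116 and -0.0035.

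In all, 20 members were called higher in at least 1 comparison. WT was the lowest library for 19 of them; for Slc47a1 it was Ogg1 KO. The highest library was Ogg1 KO for 7 members, Mutyh KO for 5 and DKO for 8. From lists of carriers known from particular cells, 8 of the 20 are on the choroid plexus list, 5 on the meningeal list and 4 on the endothelial list, 15 on at least 1 of these, and 4 on no list; a gene can be on several. Of all 237 members, 19, 8 and 16 are on those lists, 41 on at least 1 of them and 160 on no list. The lists were chosen with earlier results of these data known, so these counts are no independent support. Slc16a8, Slc37a2 and Slc39a4 of the choroid plexus list, and Slc16a12, were under 1 RPKM in WT. They reached the minimum through the knockout libraries.

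**Figure D1:**
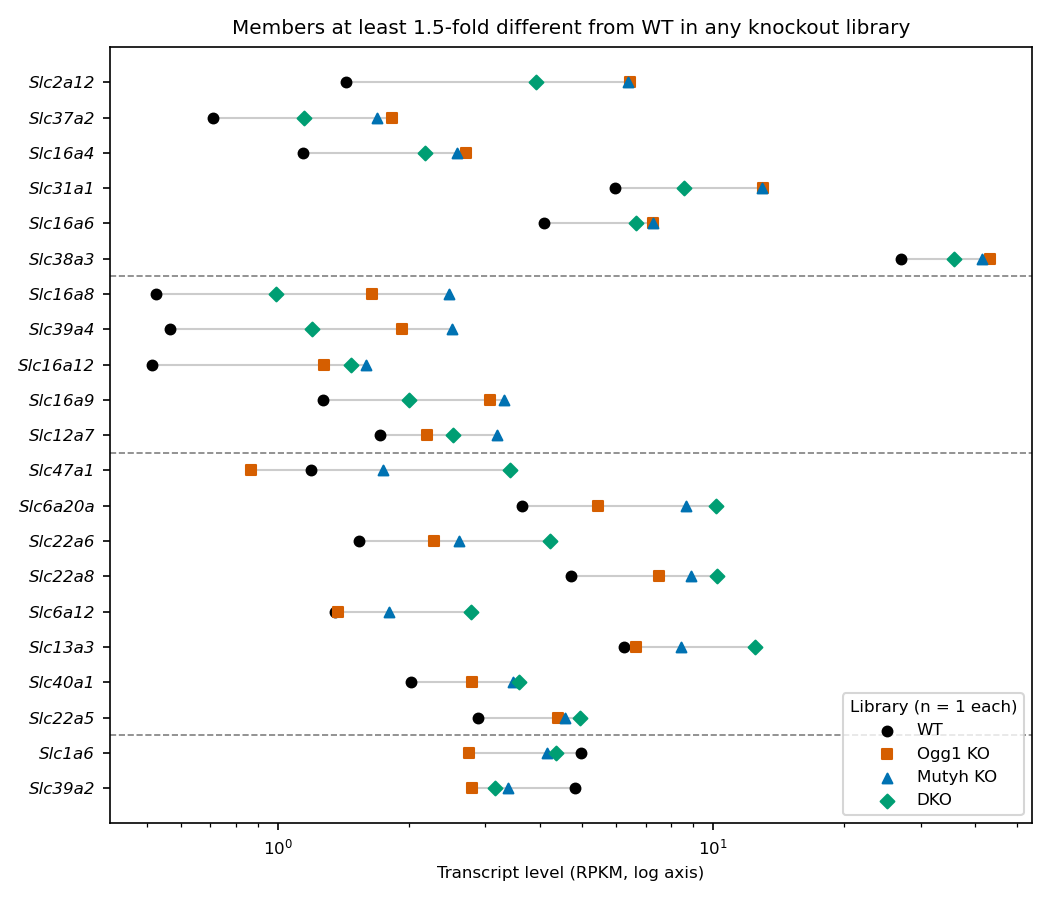
Levels in RPKM (log axis) of 21 of the 22 members called in any comparison, 1 point per library with n = 1 each and a line from the lowest to the highest library; dashed lines separate members by their highest library (Ogg1 KO, Mutyh KO, DKO and WT from top to bottom). Slc2a12 runs from 1.44 RPKM in WT to 6.45 in Ogg1 KO, and WT is the highest library for Slc1a6 and Slc39a2.

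The sequences before the start sites of 4 called members are shown, chosen to set side by side members with different orders of libraries: Slc2a12 and Slc31a1, which were highest in the single knockouts, and Slc22a6 and Slc22a8, which were highest in DKO and lie with 1 gene between them in RefSeq order. Each run is the 250 bases before the gene's start from the RefSeq promoter table (GRCm38.p6; 186 of 237 members matched by symbol), 5′ to 3′ on the gene's strand. Capitals mark each CG dinucleotide, which reads the same on both strands; the windows lie at chr10:22644761-22645010 (+), chr4:62360451-62360700 (+), chr19:8617746-8617995 (+) and chr19:8592932-8593181 (+).
Slc2a12: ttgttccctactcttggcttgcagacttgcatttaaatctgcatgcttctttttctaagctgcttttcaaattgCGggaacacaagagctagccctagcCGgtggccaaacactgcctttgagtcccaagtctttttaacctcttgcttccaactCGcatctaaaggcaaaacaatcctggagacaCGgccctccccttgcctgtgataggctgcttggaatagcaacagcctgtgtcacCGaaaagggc
Slc31a1: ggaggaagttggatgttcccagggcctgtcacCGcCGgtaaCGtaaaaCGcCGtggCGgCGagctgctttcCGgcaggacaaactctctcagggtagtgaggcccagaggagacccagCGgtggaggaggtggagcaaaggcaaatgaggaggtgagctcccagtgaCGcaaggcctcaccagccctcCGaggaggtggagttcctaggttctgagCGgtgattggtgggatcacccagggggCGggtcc
Slc22a6: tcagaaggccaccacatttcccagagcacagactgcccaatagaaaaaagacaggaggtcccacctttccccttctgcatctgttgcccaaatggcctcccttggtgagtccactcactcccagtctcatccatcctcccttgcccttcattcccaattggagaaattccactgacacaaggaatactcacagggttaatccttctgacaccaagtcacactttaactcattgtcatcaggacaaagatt
Slc22a8: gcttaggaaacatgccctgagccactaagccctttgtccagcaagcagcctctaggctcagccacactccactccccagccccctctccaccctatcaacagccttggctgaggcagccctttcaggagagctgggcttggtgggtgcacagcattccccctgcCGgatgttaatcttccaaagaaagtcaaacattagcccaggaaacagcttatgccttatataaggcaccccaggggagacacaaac
CG occurred 5 times before Slc2a12, 13 times before Slc31a1, 0 times before Slc22a6 and 1 time before Slc22a8. Over all 32851 windows of the table the median was 6 and 92.1% held at least 1; over the 244 windows of 186 members the median was 13, and over the 21 windows of 16 called members it was 5. These counts describe the letters only, and methylation was not measured.

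Among carriers that clear transmitters at the plasma membrane, the more abundant ones described here differed little. Slc1a1, a glutamate and cysteine carrier of neurons, ranged from 45.8 to 49.1 RPKM, Slc6a11, a GABA carrier of astrocytes, from 40.7 to 43.4, and Slc6a9, a glycine carrier, from 16.3 to 17.5. Slc6a11 lies 29 genes from Ogg1 in RefSeq order, and Slc6a9 lies 44 genes from Mutyh; neither was called.

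Slc1a6 and Slc6a12 of the same class did pass 1.5-fold. Slc1a6, a glutamate carrier best known from cerebellar Purkinje cells, had 188 reads in WT against 98, 149 and 166 in Ogg1 KO, Mutyh KO and DKO. Per library total it was at 0.555 of WT in Ogg1 KO (0.430 to 0.712), 0.837 in Mutyh KO (0.671 to 1.04) and 0.879 in DKO (0.709 to 1.09), so Ogg1 KO was the lowest library. Such intervals here are exact conditional 95% intervals of the ratio of reads per library total, covering counting error only. Slc6a12, which carries betaine and GABA, had 63, 60, 79 and 130 reads in the order WT, Ogg1 KO, Mutyh KO and DKO, and was 2.05-fold WT in DKO (1.51 to 2.82). The Ogg1 KO library matched WT at 1.01-fold.

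The vesicular carriers were not called in any comparison. Slc17a7, which loads glutamate into the vesicles of excitatory neurons, was the highest member, at 548 RPKM in WT against 525, 470 and 497 in Ogg1 KO, Mutyh KO and DKO. Its ratio to WT was 0.959 (0.943 to 0.975), 0.859 (0.845 to 0.874) and 0.908 (0.893 to 0.923), with WT highest. Slc18a2, the vesicular monoamine carrier, ranged from 2.73 to 3.05 RPKM, and Slc17a8, which loads glutamate in a smaller set of neurons, from 1.28 to 1.78.

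Of 32 carriers of amino acids and creatine, 1, 2 and 1 were higher in Ogg1 KO, Mutyh KO and DKO, and 0 were lower. Slc6a20a, which carries proline and other imino acids, had 125 reads in WT against 175, 282 and 350 in Ogg1 KO, Mutyh KO and DKO. That was 1.49-fold (1.18 to 1.89), 2.38-fold (1.92 to 2.97) and 2.79-fold WT (2.27 to 3.45), and both libraries lacking Mutyh were above both others. Slc38a3, a glutamine carrier of astrocytes and vessels, had 1287, 1933, 1868 and 1706 reads in the same order of libraries. It was 1.60-fold WT in Ogg1 KO (1.49 to 1.72), 1.53-fold in Mutyh KO (1.43 to 1.65) and 1.32-fold in DKO (1.23 to 1.42), with WT the lowest library. Of 16 members on the astrocyte list, 9, 10 and 9 were above WT in Ogg1 KO, Mutyh KO and DKO. So were 7199, 6995 and 6495 of all 13186 genes compared, a share near that of the list.

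The remaining carriers of this class did not pass 1.5-fold on the log2(RPKM + 1) scale. Slc6a17, a neutral amino acid carrier of synaptic vesicles, ranged from 87.6 to 95.4 RPKM, and Slc3a2, the shared heavy chain of several amino acid exchangers, from 41.2 to 42.3. Slc7a5, the large neutral amino acid exchanger that works with Slc3a2 at the blood-brain barrier, had 1420 reads in WT against 1021, 1363 and 1319 in Ogg1 KO, Mutyh KO and DKO. Its level in Ogg1 KO was 0.765 of WT (0.705 to 0.830), the lowest of the 4 libraries. Slc7a10, an exchanger of small neutral amino acids, had 664, 819, 851 and 635 reads, at 1.31-fold (1.18 to 1.46) and 1.35-fold WT (1.22 to 1.5) in Ogg1 KO and Mutyh KO and 0.952 of WT in DKO. Reads of Slc6a18 covered at most 3.34% of its length in any library, so its counts of 122 to 197 come from a small stretch of the gene.

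Among 15 carriers of sugars and inositol, the major brain glucose carriers did not pass 1.5-fold and 2 minor members did. Slc2a1, the glucose carrier of brain vessels and astrocytes, stood at 37.4, 32.5, 41.8 and 36.3 RPKM in WT, Ogg1 KO, Mutyh KO and DKO, and Slc2a3, that of neurons, at 33, 27.8, 28.4 and 28.6. Slc2a12, a glucose carrier of lower abundance, had 98 reads in WT against 413, 411 and 268 in Ogg1 KO, Mutyh KO and DKO. It was 4.49-fold WT in Ogg1 KO (3.59 to 5.65), 4.43-fold in Mutyh KO (3.55 to 5.58) and 2.72-fold in DKO (2.15 to 3.47): the single knockouts were alike, and DKO lay between them and WT. Slc37a2, a sugar phosphate exchanger of the endoplasmic reticulum, had 57, 138, 129 and 93 reads and showed the same order, at 2.58-fold (1.88 to 3.57), 2.39-fold (1.74 to 3.33) and 1.62-fold WT (1.16 to 2.30). Both are on the choroid plexus list, and Slc37a2 is also on the list for microglia, whose markers ranged from 174 to 184 RPKM in sum.

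Of 23 nucleotide sugar carriers of the Golgi and their Slc35 relatives, 0 were called in any comparison. Their log2 ratios to WT lay between -0.21 and 0.24 over the 3 comparisons. Slc35b1 was the highest, at 23 to 27.1 RPKM.

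Carriers of carboxylates, sulfate and other anions held the largest number of called members, and most of them belong to the Slc16 family of monocarboxylate and related carriers. Of 12 Slc16 members, 6, 6 and 2 were higher in Ogg1 KO, Mutyh KO and DKO, with medians of 0.53, 0.55 and 0.29 on the log2 scale, and 0 were lower. The count of 2 depends on that scale. By reads per library total, Slc16a4, Slc16a8 and Slc16a9 also passed 1.5-fold in DKO, as given below. Slc16a8 and Slc16a12 were under 1 RPKM in WT and reached the mean of 1 RPKM through the knockout libraries. Without them, 4, 4 and 1 of 10 were higher, with medians of 0.31, 0.29 and 0.13; over all genes with at least 1 RPKM in WT, the share higher was 1.2%, 1.78% and 1.22%. Slc16a6 had 313, 522, 525 and 511 reads, and its 3 knockout libraries were alike, at 1.77-fold (1.54 to 2.05), 1.77-fold (1.54 to 2.05) and 1.62-fold WT (1.41 to 1.88). Its gene overlaps Arsg, which was 1.53-fold, 1.54-fold and 1.37-fold WT.

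Further called Slc16 members were scarce. Slc16a8, a lactate carrier known from retinal pigment epithelium and choroid plexus, had 18 reads in WT against 53, 80 and 34 in Ogg1 KO, Mutyh KO and DKO. Its folds to WT were 3.13 (1.81 to 5.68), 4.70 (2.79 to 8.32) and 1.88 (1.03 to 3.54), wide intervals at these few reads. Slc16a9 had 82, 186, 202 and 130 reads in the same order, at 2.41-fold (1.85 to 3.17), 2.60-fold (2.0 to 3.41) and 1.58-fold (1.19 to 2.11). In both genes DKO lay between WT and the single knockouts.

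Slc16a4 and Slc16a12 were called as well. Slc16a4 had 46, 102, 98 and 88 reads, at 2.36-fold (1.65 to 3.42), 2.25-fold (1.57 to 3.27) and 1.90-fold WT (1.32 to 2.78), with DKO again between WT and the single knockouts. Slc16a12, a creatine carrier, had 36, 84, 106 and 104 reads, at 2.48-fold (1.66 to 3.78), 3.11-fold (2.11 to 4.68) and 2.88-fold WT (1.95 to 4.33), with DKO between the single knockouts. For both genes, the intervals of the 3 knockout libraries overlap, and WT was lowest. The family's common lactate carrier Slc16a1 was level, at 8.10 to 9.47 RPKM.

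The chaperones that bring some Slc16 carriers to the cell surface were read as well. Emb had 356 reads in WT against 539, 675 and 541 in Ogg1 KO, Mutyh KO and DKO (1.61-fold, 2.0-fold and 1.51-fold WT). Bsg was 1.252-fold, 1.31-fold and 1.07-fold WT, and Nptn was 1.06-fold, 1.04-fold and 1.03-fold. All 3 were lowest in WT, by very different amounts.

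Outside the Slc16 family, Slc13a3 was the called member of this class. It carries dicarboxylates such as succinate into cells with sodium and had 365 reads in WT against 366, 467 and 732 in Ogg1 KO, Mutyh KO and DKO. Its folds were 1.07 (0.921 to 1.24), 1.35 (1.18 to 1.55) and 2.0 (1.76 to 2.27), so WT and Ogg1 KO were alike and DKO was highest.

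**Figure D2:**
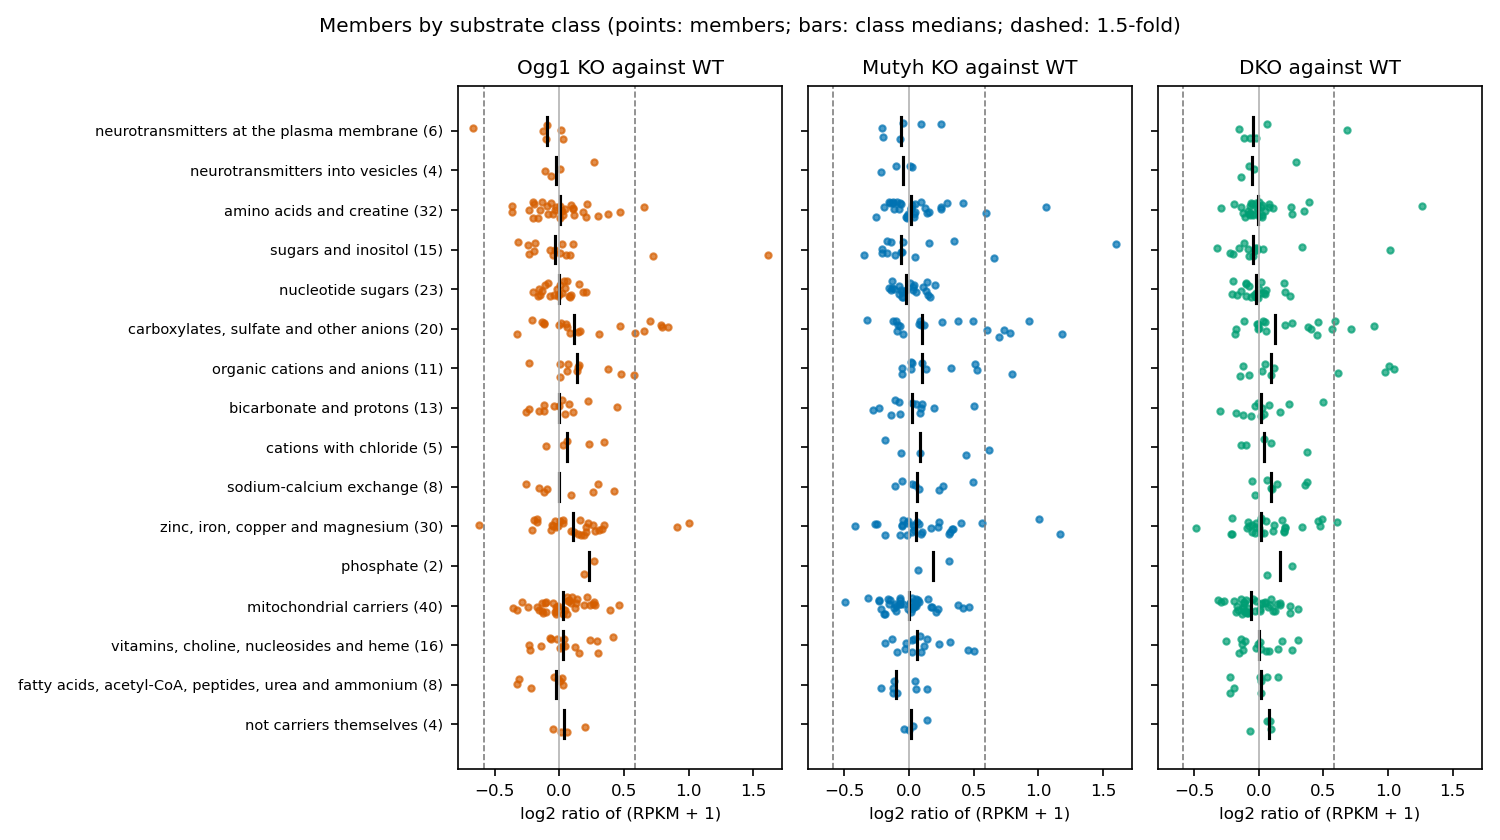
Each point is the log2 ratio of RPKM + 1 to WT of 1 member, grouped by substrate class, for Ogg1 KO, Mutyh KO and DKO (n = 1 library each), with a bar at the class median. The highest points are Slc2a12 among sugars and inositol in the single knockouts (1.61 and 1.60) and Slc6a20a among amino acids and creatine in DKO (1.26), while the 40 mitochondrial carriers stay between -0.50 and 0.46.

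Carriers of organic cations and anions export drugs, hormones and waste, and of 11, 0, 1 and 4 were called in Ogg1 KO, Mutyh KO and DKO. Of all genes compared, 1.57%, 2.31% and 1.62% were higher in these libraries. The counts depend on the log2(RPKM + 1) scale. By reads per library total, Slc22a5 and Slc22a8 passed 1.5-fold in each knockout library, and Slc22a6 in Mutyh KO and DKO. Slc22a8, an organic anion exchanger of choroid plexus and vessels, had 298 reads in WT against 448, 533 and 650 in Ogg1 KO, Mutyh KO and DKO. It was 1.60-fold (1.38 to 1.86), 1.89-fold (1.64 to 2.19) and 2.17-fold WT (1.89 to 2.50). Slc22a6, a related organic anion exchanger, had 112, 157, 180 and 310 reads, at 1.49-fold (1.16 to 1.92), 1.70-fold (1.33 to 2.17) and 2.75-fold WT (2.21 to 3.45). Both rose in the order WT, Ogg1 KO, Mutyh KO, DKO. That order is not particular to these neighbours in the genome: Slc13a3, Slc22a5, Slc40a1, Slc6a12 and Slc6a20a had it too.

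Slc47a1, a proton-coupled exporter of organic cations, had 57 reads in WT against 39, 79 and 164 in Ogg1 KO, Mutyh KO and DKO. Its ratio to WT was 0.728 in Ogg1 KO (0.472 to 1.11), 1.46 in Mutyh KO (1.03 to 2.10) and 2.86 in DKO (2.11 to 3.94), next to Slc16a12 the largest DKO ratio among called members. Slc22a5, the carnitine carrier, had 163, 234, 245 and 281 reads and was above WT in all 3 libraries, at 1.53-fold (1.246 to 1.88), 1.59-fold (1.298 to 1.95) and 1.72-fold (1.41 to 2.09). The highest carrier of the class, Slc22a17, known as a lipocalin receptor, was level at 276 to 320 RPKM.

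Among carriers that set pH and chloride, the more abundant members differed little. This does not cover Slc4a2, Slc4a5, Slc4a10 and Slc12a2, which were left out by name. In Mutyh KO those were at 2.66-fold, 15.5-fold, 1.17-fold and 1.54-fold WT. Of 13 bicarbonate and proton members 0 were called, with log2 ratios to WT between -0.30 and 0.50. Slc4a3, a chloride and bicarbonate exchanger, ranged from 30.5 to 32.4 RPKM and Slc4a4, a sodium bicarbonate carrier of astrocytes, from 29.3 to 33 RPKM. Slc12a5, which carries chloride out of neurons, stood at 107 RPKM in WT against 99.6, 94.1 and 97.4 in Ogg1 KO, Mutyh KO and DKO. Slc12a7, a potassium and chloride carrier, was the called one of the 5 in its class: it had 160, 192, 280 and 236 reads and was 1.85-fold WT in Mutyh KO (1.52 to 2.26), the highest library, and 1.47-fold in DKO (1.20 to 1.81).

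Sodium-calcium exchangers held 0 called among 8 members, and their log2 ratios to WT lay between -0.26 and 0.50. Slc8a2, an exchanger of neurons, stood at 119 RPKM in WT against 99.4, 114 and 117 in Ogg1 KO, Mutyh KO and DKO. Slc24a2, which also moves potassium, stood at 67.8, 83.7, 81.7 and 88.2 RPKM, or 1.23-fold (1.21 to 1.26), 1.20-fold (1.18 to 1.23) and 1.3-fold WT (1.27 to 1.33). At such read numbers the counting intervals are narrow, but they hold nothing on the spread between animals.

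Of 30 carriers of zinc, iron, copper, magnesium and heme, 2, 2 and 1 were higher in Ogg1 KO, Mutyh KO and DKO, and 1 was lower in Ogg1 KO. Slc31a1, the copper importer, had 407 reads in WT against 833, 837 and 588 in Ogg1 KO, Mutyh KO and DKO, at 2.18-fold (1.93 to 2.46), 2.17-fold (1.93 to 2.45) and 1.44-fold WT (1.27 to 1.64). Slc39a4, a zinc importer, had 23, 74, 97 and 49 reads, at 3.42-fold (2.12 to 5.73), 4.46-fold (2.81 to 7.36) and 2.12-fold (1.27 to 3.65). In both, the single knockouts were highest and WT was lowest. Slc40a1, the iron exporter, had 124, 161, 201 and 221 reads and reached 1.77-fold WT in DKO (1.42 to 2.23), with both libraries lacking Mutyh above both others.

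Slc39a2, another zinc importer, had 204 reads in WT against 111, 135 and 134 in Ogg1 KO, Mutyh KO and DKO. It was at 0.579 (0.455 to 0.733), 0.699 (0.558 to 0.873) and 0.654 of WT (0.522 to 0.817), so WT alone was high. The zinc carrier of glutamatergic vesicles, Slc30a3, was not called, at 39.3, 37.9, 38 and 33.7 RPKM. Slc48a1, a heme carrier and the highest of the class, ranged from 55.4 to 66.2 RPKM.

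Mitochondrial carriers had the highest summed level of any class, 1382 to 1450 RPKM, and 0 of 40 were called. Of all genes compared, 1.57%, 2.31% and 1.62% were higher in Ogg1 KO, Mutyh KO and DKO, so 0 of 40 is no result about the class. Slc25a4, which exchanges ADP for ATP, ranged from 289 to 305 RPKM, Slc25a23, a calcium-dependent carrier of ATP and phosphate, from 225 to 255, and Slc25a3, the phosphate carrier, from 153 to 182. Slc25a5, the second ADP and ATP exchanger, ranged from 122 to 132 RPKM. Slc25a13, an aspartate and glutamate carrier, was the widest by fold, at 39, 65, 71 and 51 reads, and had 0.687 RPKM in WT. The class medians were 0.03, -0.0025 and -0.06 on the log2 scale.

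The remaining classes held 0 called members. Phosphate carriers Slc20a1 and Slc20a2 ranged from 37.4 to 42.8 and from 14.6 to 18.3 RPKM. Slc23a2, the vitamin C carrier, ranged from 25.6 to 31.5 RPKM, with WT lowest, and Slc44a1, a choline carrier, from 20.9 to 22.4. The fatty acid carriers Slc27a1 and Slc27a4 ranged from 37 to 43.3 and from 20.2 to 22.3 RPKM. The 4 members that are not carriers had log2 ratios between -0.06 and 0.20.

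**Figure D3:**
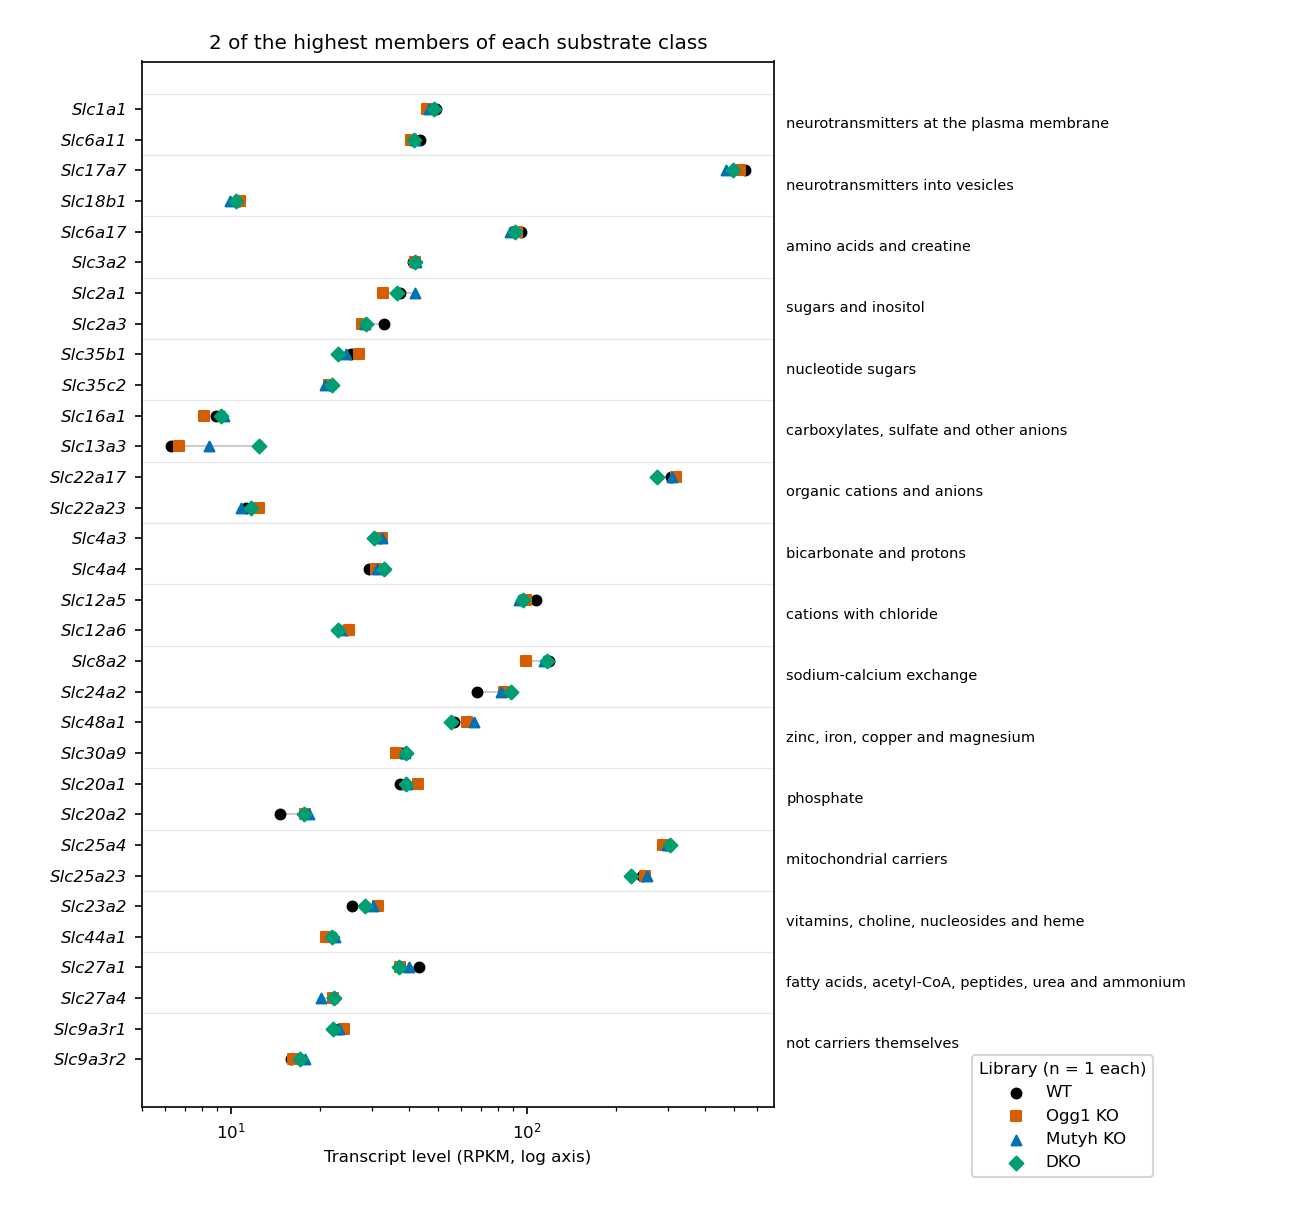
The plot gives the RPKM of 2 members with high means in each substrate class (log axis), 1 point per library with n = 1 each. Slc17a7, Slc22a17 and Slc25a4 lie farthest right; Slc13a3 is the widest, from 6.25 RPKM in WT to 12.5 in DKO.

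The crossed genotypes let the 2 libraries lacking a gene be set against the 2 that have it; they differ in the other gene and are not replicates. A member is counted when the pairs do not overlap and their mean log2(RPKM + 1) differ by at least 0.32. For Ogg1, 0 members were higher (0.599% of all genes) and 1, Slc39a2, was lower (0.422% of members against 1.01% of all genes), at 0.787-fold. For Mutyh, 11 members were higher (4.64%, against 2.31% of all genes) and 0 lower (0.774% of all genes). The 11 were Slc6a20a, Slc47a1, Slc13a3, Slc22a8, Slc22a6, Slc6a12, Slc16a12, Slc40a1, Slc12a7, Slc22a5 and Slc6a18, in falling order of size, with Slc6a20a at 1.90-fold and Slc22a5 at 1.26-fold. These values share libraries with the comparisons against WT. Of the 11, 10 had at least 1 RPKM in WT and Slc16a12 did not. Reads of Slc6a18 came from a small stretch of the gene, as given above. For Slc6a12 the interval of Mutyh KO against WT included 1, so its place here rests mainly on DKO.

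Marker levels of other tissues are given beside these groups. Of the 19 members on the choroid plexus list, 6, 8 and 3 were higher in Ogg1 KO, Mutyh KO and DKO, with medians of 0.30, 0.44 and 0.20; the choroid markers summed highest in the single knockouts. Of these, Slc16a8, Slc37a2 and Slc39a4 were under 1 RPKM in WT and reached the mean of 1 RPKM through the knockout libraries; without them, 3, 5 and 3 of 16 were higher, with medians of 0.29, 0.29 and 0.16. Of 8 members on the meningeal list, 0, 1 and 5 were higher, with medians of 0.10, 0.29 and 0.79. The meningeal markers summed to 150.2, 200.6 and 149.0 RPKM in the same order, highest in Mutyh KO rather than in DKO. Igf2 alone held 79.0, 114.3 and 59.7 RPKM of these sums, so their order rests largely on that gene. Of the 10 meningeal markers, 4 were highest in DKO (Aldh1a2, Crabp2, Lum and Ogn), 5 in Mutyh KO (Col1a1, Col1a2, Dcn, Igf2 and Slc13a4, itself a carrier left out by name) and 1 in Ogg1 KO (Foxd1). Aldh1a2, for example, had 111, 192, 248 and 379 reads, and Igf2 had 1797, 5430, 7914 and 4388. Of 16 members on the endothelial list, 2, 3 and 2 were higher, with medians of 0.0006, 0.09 and 0.02. Of 14 members on the list for excitatory neurons, 0 were called in any comparison, with medians of -0.05, -0.06 and -0.06. The part of neighbouring tissue in these values was not tested.

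**Figure D4:**
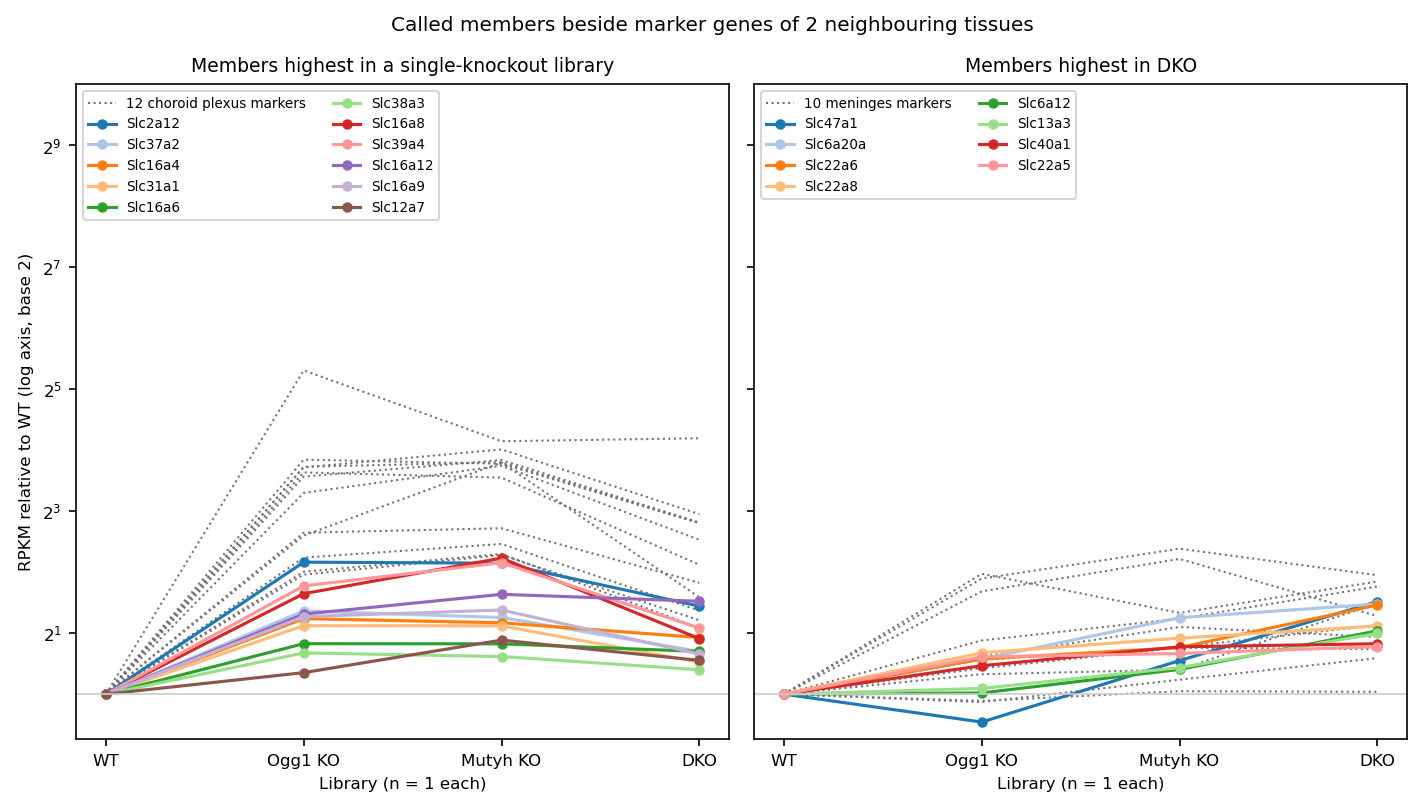
RPKM relative to WT (log axis, base 2) in the 4 libraries (n = 1 each): on the left 11 of the 12 called members highest in a single knockout, with the 12 choroid plexus markers dotted; on the right the 8 called members highest in DKO, with the 10 meningeal markers dotted. Members on the left lie below most choroid markers, and Slc47a1 on the right is the one member below WT, at 0.728 in Ogg1 KO.

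Membrane transport genes outside the Slc symbols were read by the same rule. Of 43 such genes (ATP-binding cassette and organic anion carriers, sodium pump subunits and the Slc16 chaperones), 3, 3 and 1 were higher in Ogg1 KO, Mutyh KO and DKO, and 0 were lower. The share higher over all genes compared was 1.57%, 2.31% and 1.62%. Abca4, a retinoid lipid flippase, had 83, 460, 668 and 312 reads (5.90-fold, 8.50-fold and 3.74-fold WT). Slco1c1, a thyroid hormone carrier of vessels and choroid plexus, had 887, 1295, 1376 and 1075 reads (1.55-fold, 1.64-fold and 1.21-fold WT). For both genes the single knockouts were above DKO and WT.

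Some called members share their place in the genome with another gene, and whether the counting kept strand is not given in the sources used here, so reads of overlapping genes cannot be told apart. Slc2a12 overlaps Tbpl1 (1.05-fold, 0.920-fold and 0.962-fold WT), Slc31a1 overlaps Fkbp15 (1.01-fold, 1.15-fold and 1.02-fold), and Slc16a4 overlaps Rbm15 (1.09-fold, 0.987-fold and 1.05-fold). Arsg, which overlaps Slc16a6, was 1.53-fold, 1.54-fold and 1.37-fold WT. Slc22a6 and Slc22a8 both overlap Gm36394, which was not among the genes compared. The part of overlapping genes in these values was not tested.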

How the data were processed

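RNA-seq of 4 hippocampal libraries, 1 per genotype, was used as deposited. Per the file headers, the authors deposited for each gene its unique read count, its length in bases, the percent of that length covered and its RPKM. The build was mm9, per the submitters' processing notes; the aligner, counting program, annotation and strand are not given in the sources used here. A gene absent from a table was set to 0 there. Members and gene lists were chosen with earlier results of these data known.

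From these tables, members and all genes with a mean of at least 1 RPKM were compared as log2 ratios of RPKM after a pseudocount of 1 RPKM, with calls at 1.5-fold. Folds of named genes are ratios of reads per library total with exact conditional 95% intervals (Python 3.11.15, scipy 1.17.1), which hold counting error alone. There being 1 library for each genotype, no test was run and no p-value is given. The calculation was tested on simulated data. Genes named are those past 1.5-fold in any comparison, the 2 highest of each substrate class, those on cell lists or near Ogg1 or Mutyh, those apart between pairs of libraries, those at the minimum of 1 RPKM, and a fixed list of other transport genes. Named outside this rule, after their values were seen, are Slc18a2, Slc17a8, Slc25a3, Slc25a5 and the carriers under the minimum in the closing section. Alternatives were pseudocounts of 0.1 and 0.5 RPKM, a minimum of 5 RPKM or none, a 2-fold threshold, totals without ribosomal RNA genes, and TMM (edgeR 4.0.16) and median-of-ratios scaling. Some members are counted but not reported here by name.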

Additional observations from a re-analysis of the deposited data

Results flagged for a closer look

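For 5 members, the library without Ogg1 lay above its partner where Mutyh was intact (Ogg1 KO against WT) and below its partner where Mutyh was also lost (DKO against Mutyh KO). They were picked out because the libraries moved in opposite directions by at least 1.5-fold; the difference between the backgrounds was not tested, since each value rests on 1 library against 1. Only loss of Ogg1 was screened in this way. In all 5, DKO lay above WT and below both single knockouts, so the direction for loss of Mutyh reversed as well, and the pattern is not particular to Ogg1. Slc2a12 was 4.49-fold (3.59 to 5.65) with Mutyh intact and 0.614-fold (0.525 to 0.718) with Mutyh lost. Slc16a8 was 3.13-fold (1.81 to 5.68) and 0.400-fold (0.260 to 0.605), and Slc39a4 was 3.42-fold (2.12 to 5.73) and 0.476-fold (0.330 to 0.678). Slc16a9 was 2.41-fold (1.85 to 3.17) and 0.606-fold (0.483 to 0.759), and Slc31a1 was 2.18-fold (1.93 to 2.46) and 0.662-fold (0.594 to 0.736). Choroid plexus markers moved with them, summing to 262 RPKM in WT against 2933, 2885 and 1475 in Ogg1 KO, Mutyh KO and DKO; their part in the result was not tested.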

How the results depend on the processing

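No paired analysis was possible because each genotype has 1 library, and for the same reason no library could be left out of a group. Counts of called members depended most on the level and size asked for. Members higher in Ogg1 KO were 4 at a minimum of 5 RPKM, 2 at a 2-fold threshold and 7 without members under 1 RPKM in WT (an alternative added after seeing the data), and the lower ones were 0 at either of the first 2 settings. Members higher in Mutyh KO were 6 at 5 RPKM and 5 at 2-fold. Members higher in DKO were 19 with a pseudocount of 0.1 RPKM, 4 at 5 RPKM and 4 at 2-fold, and 1 was lower with a pseudocount of 0.1 RPKM. For the pairs lacking and having Ogg1, the higher count was 2 and 1 with pseudocounts of 0.1 and 0.5 RPKM, 1 with no filter and 26 with no minimum size; the lower count was 4 and 2 with those pseudocounts, 0 at 5 RPKM, 2 with no filter, 34 with no minimum size and 0 at 1.5-fold. For the pairs lacking and having Mutyh, the higher count was 3 at 5 RPKM, 46 with no minimum size and 5 at 1.5-fold; the lower count was 1 with either pseudocount, 1 with TMM and 1 with median-of-ratios scaling, and 41 with no minimum size. Without a minimum size, pairs of libraries that do not overlap occurred in both directions. The members' median log2 ratio, above 0 in each comparison as reported, lay so near 0 that its sign changed: under median-of-ratios scaling it was -0.0013, -0.0103 and -0.0085 in Ogg1 KO, Mutyh KO and DKO; it was -0.0066 in Mutyh KO and -0.0112 in DKO under TMM, and in DKO -0.018 at 5 RPKM and -0.0042 without members under 1 RPKM in WT. The members' share of reads was 1.75%, 1.76% and 1.76% in WT, Mutyh KO and DKO without ribosomal RNA genes. At 5 RPKM it was 1.67% in WT against 1.69%, 1.66% and 1.66% in Ogg1 KO, Mutyh KO and DKO. With no filter it was 1.77%, 1.75% and 1.74% in the knockout libraries. No called value of a named gene changed direction; of 288 values of named genes, 11 moved with a pseudocount of 0.1 RPKM, 4 with median-of-ratios scaling and 1 with TMM.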

Other observations

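Several solute carriers under the minimum of 1 RPKM were uneven between libraries; they were picked after their values were seen. Slc5a1, the sodium glucose carrier of intestine and kidney, had 2 reads in WT against 54, 8 and 9 in Ogg1 KO, Mutyh KO and DKO, a ratio of 28.7 in Ogg1 KO (7.58 to 243). Its reads covered 46.86% of the gene in Ogg1 KO and 10.32% or less in the other libraries. Slc51a, a subunit of a bile acid and steroid carrier, had 10 reads in Ogg1 KO and 0 in the other libraries. Slc4a1, the anion exchanger of red cells, had 8 reads in WT against 6, 33 and 3 in Ogg1 KO, Mutyh KO and DKO, and blood cell markers also summed highest in Mutyh KO, at 190 RPKM; their part in the result was not tested. Slc26a7, an anion exchanger, had 7, 15, 21 and 30 reads in WT, Ogg1 KO, Mutyh KO and DKO, and Slc36a2, a proton-coupled amino acid carrier, had 4, 8, 9 and 19.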
